A study of Mus musculus with 12 samples.

Results

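Chromatin accessibility at the genes of the RUNX transcription factors Runx1, Runx2 and Runx3 and of their shared partner Cbfb was followed in transformed mouse embryonic fibroblasts (MEFs). Members were all ATAC-seq peaks that overlapped the body of 1 of these 4 genes or the 100 kb on either side. Peaks of 7 lists were merged where they overlapped by 1 bp or more, and each merged region is called a locus. The 4 genes held 165 loci, made from 681 peaks, of 147985 loci and 535411 peaks in the whole series. A locus was open in a list if a peak of that list overlapped it. A drug closed a locus where the untreated list of a line had a peak and the treated list had none, and opened it where only the treated list had one.

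The study compared transformed lines that differ in their capacity to be reprogrammed to pluripotency, and asked what inhibition of MEK does to their chromatin. There were 12 libraries in 7 groups, each group with 1 peak list. Hdac7SA.Mef2d cells carry transgenes of the histone deacetylase Hdac7SA and the MEF2 factor Mef2d. Hras.E1A cells (Ras.E1A in the labels) carry the oncogene Ras with adenoviral E1A, and Hras.Myc cells (Ras.Myc in the labels) carry Ras with Myc. Both Hras lines were also treated for 2 days with PD0325901 (+PD), an inhibitor of the kinase MEK, or with TSA (trichostatin A), an inhibitor of histone deacetylases. Each of the TSA groups had 1 library and each of the other groups had 2. All cells were MEFs of E13.5 embryos that had been transfected with the transgenes and passaged. The labels give them as OG2 MEFs, which carry a reporter of Oct4, although the growth protocol of the same labels names an ICR background. The sources used here do not say whether a line was 1 clone. Wildtype MEF lists were not used here.

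RUNX proteins bind DNA through their Runt domain, and Cbfb, which does not bind DNA itself, raises the affinity of that binding. Runx1 is required for blood stem cells to form in the embryo, Runx2 for osteoblasts and for the maturation of cartilage, and Runx3 for T cell lineages and sensory neurons. Each RUNX gene is read from a distal promoter, P1, and a proximal promoter, P2, which give proteins with different amino ends. ERK, the kinase activated by MEK, phosphorylates RUNX proteins, and AP-1 dimers of the Fos and Jun families are well known nuclear targets of the same pathway.

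The lists were of unequal length. That of Hdac7SA.Mef2d had 119251 peaks, with 59823 in Hras.E1A +PD, 79687 in Hras.E1A +TSA, 81201 in Hras.E1A, 56774 in Hras.Myc +PD, 70937 in Hras.Myc +TSA and 67738 in Hras.Myc. Every peak was 400 bp wide, and so was every one of the 165 loci. Each peak carried a score of the authors, given below mostly as a percentile, the share of peaks in the same list with an equal or lower score. Read counts were not used and the depth is unknown, so a region lacking a peak could still have been accessible below the threshold of its list. Each group had 1 list whatever its number of libraries, so no test between groups could be made. Shares are given with exact 95% intervals (Clopper-Pearson). These take in only the counting error, as if adjacent loci were independent. In these bulk samples, fewer cells with an open locus and less opening per cell cannot be told apart. Of 10 promoters of fibroblast genes, 7 to 10 were open in each list, the absent ones being Col1a2, Thy1 or Prrx1. Among promoters of blood genes, those of Cd34 and Csf1r were open in every list and those of Ptprc, Spi1, Gata1, Cd3e and Itgam in none. Of 8 osteoblast and cartilage promoters, 3 to 6 were open, and that of the osteoblast gene Bglap was closed in all lists. Of 5 epithelial promoters, 3 or 4 were open, in every list with Epcam, Krt8 and Krt18. Of 4 endothelial promoters 1 to 3 and of 4 muscle promoters 0 to 2 were open.

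The distal promoters of the 3 RUNX genes are shown first because they carry the RUNX motif itself and because those of Runx1 and Runx2 differed between lists. The sequences are the 250 bases before and the 50 bases after the RefSeq start site (build GRCm38.p6), 5′ to 3′ on the strand of the gene, with each RUNX motif (TGTGGTT, read on either strand) in capitals.
Runx1 P1, chr16:92826025-92826324, minus strand: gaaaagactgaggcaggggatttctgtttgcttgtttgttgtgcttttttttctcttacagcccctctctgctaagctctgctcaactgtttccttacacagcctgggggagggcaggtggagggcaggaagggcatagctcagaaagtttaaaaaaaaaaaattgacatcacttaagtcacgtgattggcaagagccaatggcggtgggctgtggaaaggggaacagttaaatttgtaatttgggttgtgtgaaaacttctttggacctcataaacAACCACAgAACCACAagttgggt
Runx2 P1, chr17:44814578-44814877, minus strand: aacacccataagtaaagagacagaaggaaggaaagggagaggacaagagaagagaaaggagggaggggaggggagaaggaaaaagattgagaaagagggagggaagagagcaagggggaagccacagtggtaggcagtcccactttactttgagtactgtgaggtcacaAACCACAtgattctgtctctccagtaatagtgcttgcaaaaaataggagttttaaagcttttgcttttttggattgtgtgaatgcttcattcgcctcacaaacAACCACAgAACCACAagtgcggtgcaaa
Runx3 P1, chr4:135120395-135120694, plus strand: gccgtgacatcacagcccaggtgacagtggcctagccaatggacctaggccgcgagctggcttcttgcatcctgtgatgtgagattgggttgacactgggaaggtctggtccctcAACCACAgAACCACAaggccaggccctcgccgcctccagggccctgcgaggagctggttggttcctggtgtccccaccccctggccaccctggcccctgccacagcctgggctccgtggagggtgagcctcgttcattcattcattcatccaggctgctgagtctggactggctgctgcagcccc
The 3 sequences had 2, 3 and 2 RUNX motifs. The longest run that all 3 share is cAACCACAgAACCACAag, of 18 bases, which holds 2 motifs separated by 1 base. It starts 27 bases after the start site in Runx1, 22 bases after it in Runx2, and at -136 in Runx3. Of 32851 promoter windows of the same length in the table, 4 held this run, those of the 3 RUNX genes and Gm16225. At least 1 RUNX motif stood in 5.27% of these windows and at least 2 in 0.204%. The other promoters held none, and were of higher GC content, with 69.0% in Runx1 P2, 77.3% in Runx3 P2 and 69.7% in Cbfb, against 45.0%, 45.3% and 63.7% in the P1 promoters of Runx1, Runx2 and Runx3. The RefSeq table matched 6 of the 7 promoters and gave no separate window for Runx2 P2.

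Runx1 P1 was open only in Hdac7SA.Mef2d. Its locus at chr16:92825775-92826174 (mm10) covers the first start site, holds 3 RUNX motifs and had a peak of score 2.06, at percentile 9.09 of that list. None of the 6 Hras lists had a peak there. Runx1 P2, at chr16:92697103-92697502, was open in all 7 lists. Its percentile was 39.8 in Hdac7SA.Mef2d, 50.3 in Hras.E1A +PD, 42.7 in Hras.E1A +TSA, 35.7 in Hras.E1A, 49.2 in Hras.Myc +PD, 71.3 in Hras.Myc +TSA and 34.2 in Hras.Myc, highest in Hras.Myc +TSA and lowest in Hras.Myc. A further start site of Runx1, downstream of P2, had no other locus within 1000 bp than that of P2. With the weakest 25% of every list removed, Runx1 P1 was open in 0 lists.

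Runx2 P1, at chr17:44814554-44814953, was open in the untreated list of Hras.E1A and not in that of Hras.Myc. It covers the first start site and coding sequence of the first exon, and holds 3 RUNX motifs. It was open in Hdac7SA.Mef2d (percentile 55.5), in Hras.E1A +PD (19.8), Hras.E1A +TSA (21.8) and Hras.E1A (15.9), and in Hras.Myc +TSA (58.2), whilst Hras.Myc +PD and Hras.Myc had no peak. The P1 promoter of Runx2 was thus the only promoter of the 4 genes that TSA opened in Hras.Myc. Runx2 P2 consisted of 2 loci, chr17:44736031-44736430 and chr17:44734841-44735240, and both were open in all 7 lists. Their peaks were weak. The first lay between percentile 8.11 in Hras.Myc and 20.7 in Hras.E1A +TSA, and the second, which overlaps coding sequence, between 0.401 in Hras.E1A and 7.68 in Hras.Myc +PD. Removing the weakest 25% of every list left Runx2 P1 open in 2 lists, Hdac7SA.Mef2d and Hras.Myc +TSA, and P2 in 0. At that setting none of the Hras.E1A lists held P1, so the untreated Hras lines no longer differed there.

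Runx3 P1 had no peak in any list. Runx3 P2, at chr4:135152399-135152798, was open in all 7 lists, at percentile 14.6 in Hdac7SA.Mef2d, 27.1 in Hras.E1A +PD, 39.2 in Hras.E1A +TSA, 21.7 in Hras.E1A, 5.90 in Hras.Myc +PD, 9.28 in Hras.Myc +TSA and 5.72 in Hras.Myc. The 3 Hras.Myc lists were the lowest of the 7, and with the weakest 25% of each list removed the promoter was open in 2 lists. The promoter of Cbfb, at chr8:105170416-105170815, was open in all lists, at percentile 43.7 in Hdac7SA.Mef2d, 74.5 in Hras.E1A +PD, 65.1 in Hras.E1A +TSA, 51.5 in Hras.E1A, 26.5 in Hras.Myc +PD, 81.7 in Hras.Myc +TSA and 59.7 in Hras.Myc. Since the lists differ in length, a percentile can also move with the peaks that leave or join a list, and differences in percentile between lists are given as values only. A second locus of the Cbfb promoter, at chr8:105171082-105171481, held a peak in Hras.E1A +TSA alone, at percentile 0.124.

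**Figure D1:**
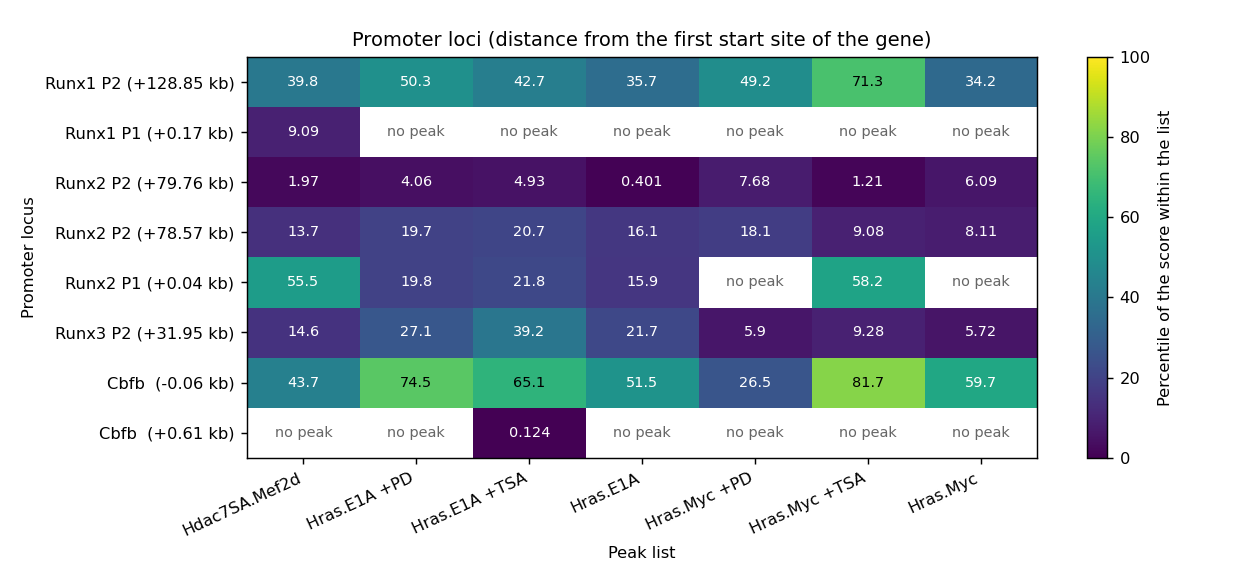
Percentile of the peak score within its list at the 8 promoter loci of the 4 genes (rows, with the distance of the locus centre from the first start site of the gene in kb) in the 7 peak lists (columns); white cells had no peak. Runx1 P2, both Runx2 P2 loci, Runx3 P2 and Cbfb are filled in all 7 lists, whereas Runx1 P1 is filled in Hdac7SA.Mef2d alone, at 9.09, and Runx2 P1 is empty in Hras.Myc +PD and Hras.Myc.

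Runx1 had 57 loci, Runx2 49, Runx3 32 and Cbfb 27. Per 100 kb of gene and flank this came to 13.4 for Runx1, 9.45 for Runx2, 12.4 for Runx3 and 10.9 for Cbfb. Over the genome it was 5.43, from all loci and the full length of the chromosomes. Windows around other genes were not compared. The loci were 8 promoter loci, 2 in other exons, 74 in introns, 34 in the upstream flanks and 47 in the downstream flanks. In Runx2, 15 of the loci counted as intronic lie in the 3′ part of the gene record, beyond the basic transcripts. In mm10, Runx1 lies at chr16:92601466-92826149 on the minus strand, Runx2 at chr17:44495987-44814797 on the minus strand, Runx3 at chr4:135120652-135177990 on the plus strand and Cbfb at chr8:105170674-105217989 on the plus strand. The windows also hold promoters of other genes. That of Cbfb contains 9 loci at the promoters of D230025D16Rik, B3gnt9, Tradd, Hsf4, Nol3, 4931428F04Rik, E2f4 and Elmo3, that of Runx2 holds the promoter of Supt3, and that of Runx3 that of Clic4, each with 1 locus.

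Of the 165 loci, 44 (26.7%) were open in all 7 lists, against 20.2% of all loci. By gene these were 14 of Runx1, 9 of Runx2, 6 of Runx3 and 15 of Cbfb. There were 29 loci open in a single list, and 21 of these in Hdac7SA.Mef2d. Over all loci, 44325 of 147985 were open in a single list, and 35502 of these in Hdac7SA.Mef2d. Both counts were smaller parts of the 165 loci than of all loci, a difference that was not tested. The list of Hdac7SA.Mef2d held 127 of the 165 loci (77.0%), Hras.E1A +PD 67 (40.6%), Hras.E1A +TSA 107 (64.8%), Hras.E1A 108 (65.5%), Hras.Myc +PD 73 (44.2%), Hras.Myc +TSA 103 (62.4%) and Hras.Myc 96 (58.2%). The shares of all loci in the same lists were 80.2%, 40.0%, 53.4%, 54.4%, 38.0%, 47.6% and 45.4%. The members were open more often than all loci in the 4 Hras lists without PD, where the lowest interval was that of Hras.Myc (50.3% to 65.8%). In Hdac7SA.Mef2d and both PD lists the interval included the share of all loci, and that of Hras.Myc +PD was 36.5% to 52.2%.

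**Figure D2:**
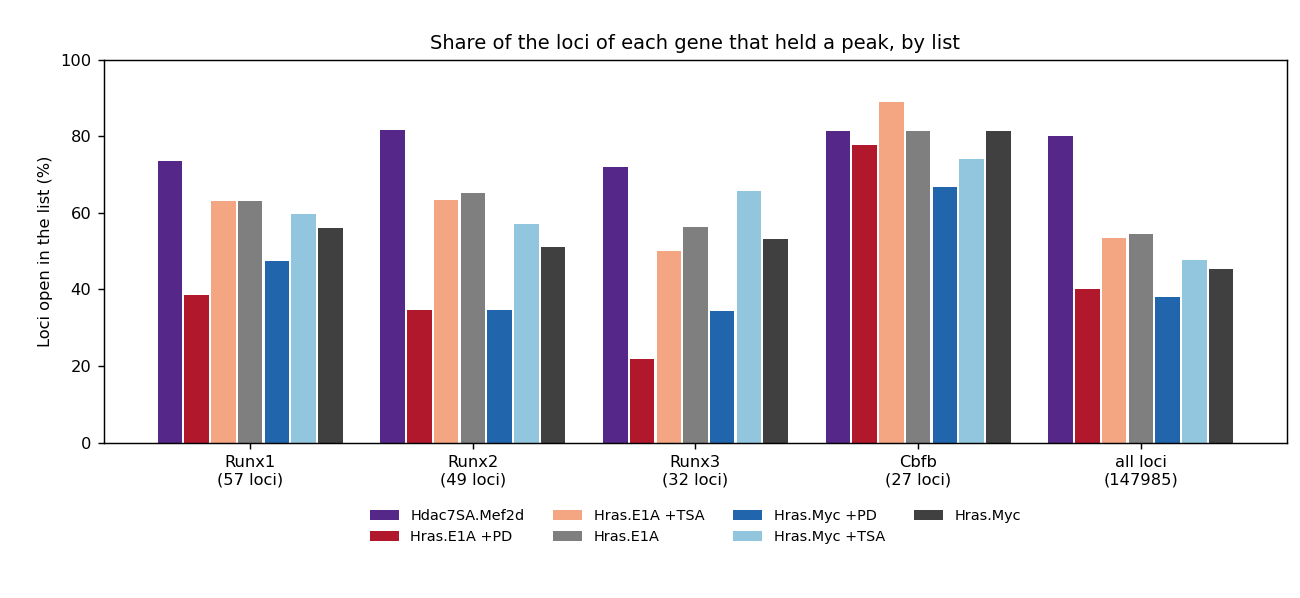
Share of the loci of each gene, and of all loci of the series, that held a peak in each list (bars start at 0; y axis in percent). The red and blue bars of the PD lists are the lowest of their line at each of the 4 genes, with 21.9% of Runx3 loci open in Hras.E1A +PD, and at Cbfb 77.8% of loci were open in Hras.E1A +PD and 66.7% in Hras.Myc +PD.

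Without treatment, Hdac7SA.Mef2d had 127 open loci at the 4 genes, Hras.E1A 108 and Hras.Myc 96. Of the 127, 35 (27.6%, interval 20% to 36.2%) were open in neither Hras line. Over all loci the share was 42.6%, above that interval. This did not hold under all settings. The interval included the background with the weakest 25% of each list removed (38.3%, interval 27.7% to 49.7%, background 47.4%), with lists of equal length (32.1%, interval 20.3% to 46%, background 45.2%) and with only loci whose nearest start site is that of a member (33.3%, interval 23.6% to 44.3%, background 42.6%). By gene it was 13 of 42 at Runx1, 11 of 40 at Runx2, 8 of 23 at Runx3 and 3 of 22 at Cbfb, and in each the share (31.0%, 27.5%, 34.8% and 13.6%) was below that of all loci, although only the interval of Cbfb (2.91% to 34.9%) excluded it. In the opposite direction, Hdac7SA.Mef2d lacked 14 of the 85 loci open in both Hras lines, 7 of the 14 at Runx1. Over all loci it lacked 9662 of 60269. All 3 lines shared 71 loci. Between the Hras lines, 23 loci were open in Hras.E1A and not in Hras.Myc, and 11 in Hras.Myc and not in Hras.E1A. Of the member loci open in Hras.E1A, 78.7% were also open in Hras.Myc (74.8% over all loci). Of those open in Hras.Myc, 88.5% were also open in Hras.E1A (89.7% over all loci). Both shares are near those over all loci.

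The 21 loci found in Hdac7SA.Mef2d alone of the 7 lists were 9 at Runx1, 4 at Runx2, 6 at Runx3 and 2 at Cbfb. They were 9 intronic loci, 11 in the flanks and the P1 promoter of Runx1, and their peaks reached from percentile 7.08 to 93.0 of that list, with a median of 54.3. The strongest by gene were chr16:92845757-92846156, 19808 bp upstream of Runx1 P1, at percentile 85.3, chr17:44677795-44678194 in an intron of Runx2 at 74.5, chr4:135095643-135096042, 24809 bp upstream of Runx3 P1, at 93.0, and chr8:105210704-105211103 in an intron of Cbfb at 65.8. These 4 were picked after their values were seen.

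**Figure D3:**
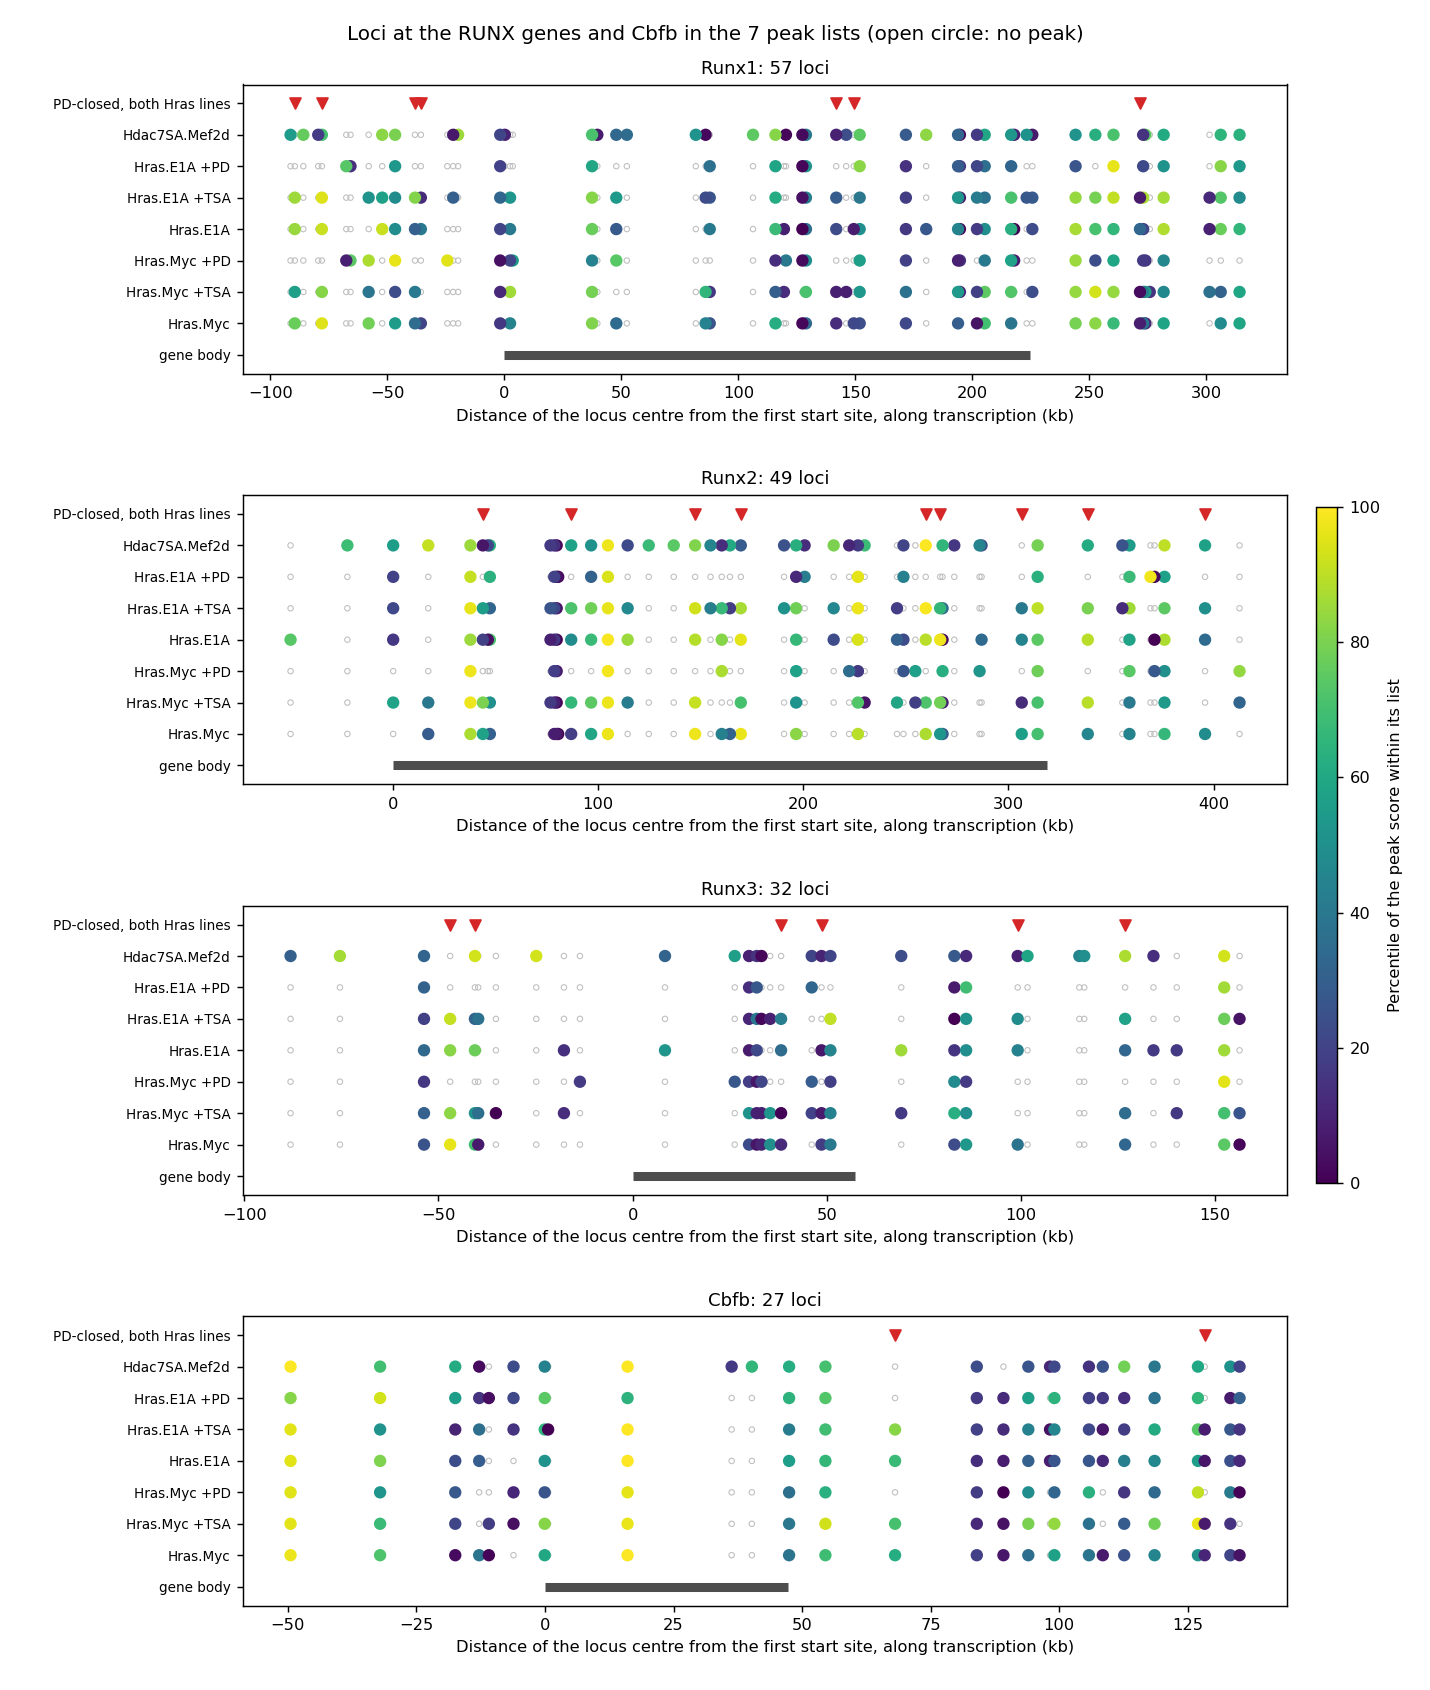
The 165 loci of the 4 genes placed by the distance of their centre from the first start site, in kb along the direction of transcription, with 1 row for each peak list. Filled circles are open loci coloured by the percentile of the peak score within its list, small open circles are loci with no peak in that list, and red triangles mark the 24 loci closed with PD in both Hras lines. The triangles spread over introns and flanks, 7 at Runx1, 9 at Runx2, 6 at Runx3 and 2 at Cbfb, and none lies at a promoter.

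PD closed 49 of the 108 loci open in Hras.E1A (45.4%, interval 35.8% to 55.2%) and 40 of the 96 open in Hras.Myc (41.7%, interval 31.7% to 52.2%). Over all loci PD closed 38.9% in Hras.E1A and 38.4% in Hras.Myc. Both values lie inside the intervals of the 4 genes, so the members as a whole closed at about the background rate. With only loci whose nearest start site is that of a member, the share in Hras.E1A was 36 of 68 (52.9%, interval 40.4% to 65.2%), above the 38.9% of all loci. That background includes promoter loci, whereas this setting drops the promoters of other genes in the windows. The share of all loci with promoter loci left out, 46.3%, lies inside the interval. In Hras.Myc the share under this setting was 46.7%, and its interval included the 38.4% of all loci. The counts differed between genes. At Runx2, 18 of 32 loci closed in Hras.E1A (56.2%, interval 37.7% to 73.6%) and 14 of 25 in Hras.Myc (56.0%, interval 34.9% to 75.6%). At Runx3, 12 of 18 closed in Hras.E1A (66.7%, interval 41.0% to 86.7%) and 9 of 17 in Hras.Myc (52.9%, interval 27.8% to 77.0%). Runx1 was near the background, with 16 of 36 (44.4%) in Hras.E1A and 12 of 32 (37.5%) in Hras.Myc. At Cbfb, 3 of 22 closed in Hras.E1A (13.6%, interval 2.91% to 34.9%) and 5 of 22 in Hras.Myc (22.7%, interval 7.82% to 45.4%). Against the share of all loci, the interval of Runx3 in Hras.E1A lay above it and that of Cbfb in Hras.E1A below it, and the others included it. None of these differences between genes was tested.

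Promoter loci were rarely closed by PD, and they were most frequent in the window of Cbfb. Of all promoter loci of protein-coding genes, 6.98% closed in Hras.E1A and 7.16% in Hras.Myc. At the 4 genes, 1 of 17 closed in Hras.E1A and 0 of 15 in Hras.Myc. In Hras.E1A, 10 of the 22 open loci in the window of Cbfb were such promoter loci, against 1 of 36 at Runx1, 4 of 32 at Runx2 and 2 of 18 at Runx3. With promoter loci left out, 48 of 91 distal loci closed in Hras.E1A (52.7%, background 46.3%) and 40 of 81 in Hras.Myc (49.4%, background 46.9%). For Cbfb this gave 2 of 12 in Hras.E1A (16.7%, interval 2.09% to 48.4%, which includes the background) and 5 of 13 in Hras.Myc (38.5%), for Runx2 18 of 28 (64.3%) and 14 of 22 (63.6%), and for Runx3 12 of 16 (75.0%) and 9 of 15 (60%). In Hras.E1A, the interval of the distal loci of Runx3 was 47.6% to 92.7%, above the background.

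By place in the gene, PD closed 26 of 47 open intronic loci in Hras.E1A (55.3%) and 20 of 41 in Hras.Myc (48.8%). In the upstream flanks 9 of 16 closed in each line (56.2%), and in the downstream flanks 14 of 38 (36.8%) in Hras.E1A and 11 of 33 (33.3%) in Hras.Myc. Over all loci, whatever their place, the shares were 38.9% and 38.4%. Without promoter loci they were 46.3% and 46.9%, the closer comparison for introns and flanks. The intron interval of Hras.E1A, 40.1% to 69.8%, includes the first of these distal shares. That of Hras.Myc, 32.9% to 64.9%, includes the second. The intervals of the upstream and downstream flanks include them too. Cbfb held 15 of the 38 downstream loci, 3 of them closed, and 14 of the 33, 3 of them closed. Its downstream flank holds the 9 promoter loci of other genes, and their part in the differences between places was not tested. None of the 6 open promoter loci of the 4 genes closed in Hras.E1A and none of the 5 in Hras.Myc, which allows a share of up to 45.9% and 52.2%. Of the 74 loci counted as intronic, 36 lie at Runx2. There PD closed 15 of 23 open loci in Hras.E1A and 12 of 19 in Hras.Myc. In the introns of Runx3 it closed 4 of 5 in Hras.E1A and 3 of 6 in Hras.Myc.

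**Figure D4:**
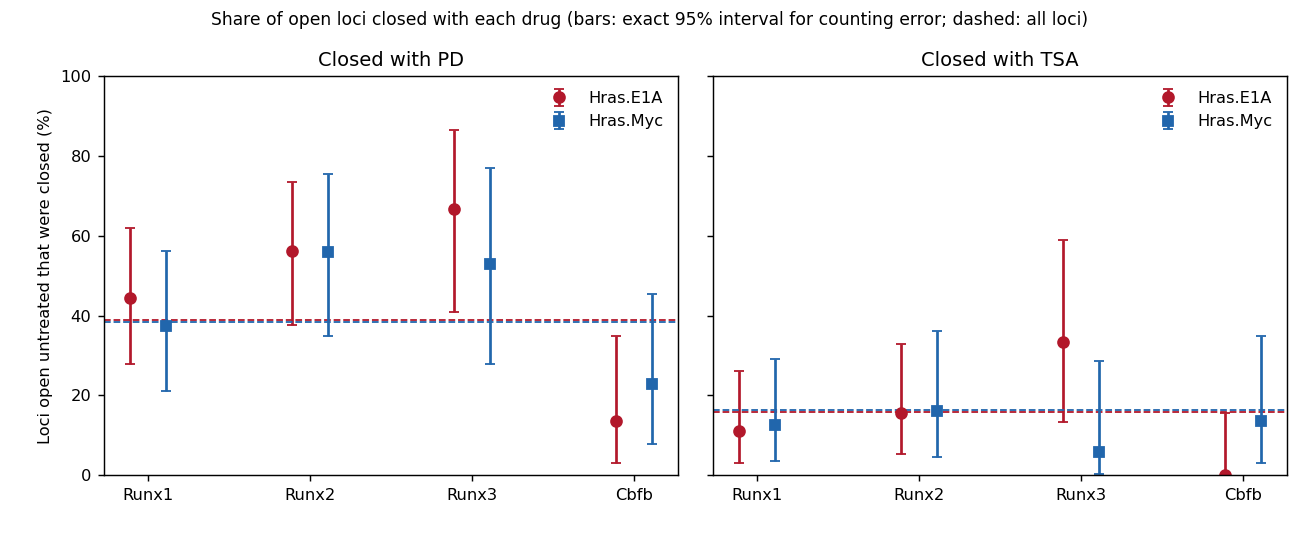
Share of the loci open in an untreated Hras line that were closed with PD (left) or with TSA (right), by gene, in Hras.E1A (red circles) and Hras.Myc (blue squares). Bars are exact 95% intervals for counting error and dashed lines are the shares of all loci (38.9% and 38.4% with PD, 15.8% and 16.4% with TSA). With PD, Runx2 and Runx3 lie above the dashed lines and Cbfb below them in both lines, and only Runx3 and Cbfb in Hras.E1A have bars that miss their line. With TSA, only the bar of Cbfb in Hras.E1A misses its line, with 0 of 22 loci closed.

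In the lists as deposited, PD opened fewer loci than it closed. In Hras.E1A, 8 of the 57 loci not open before treatment opened (14.0%, background 14.9%), and in Hras.Myc 17 of 69 (24.6%, background 18.4%, interval 15.1% to 36.5%). Both are near the share over all loci. Of the 17 in Hras.Myc, 7 lay at Runx1 and 6 at Runx2. With lists cut to equal length the counts were nearly even, with 26 opened and 29 closed in Hras.E1A and 26 opened and 30 closed in Hras.Myc.

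Loci that closed in both lines were followed singly. Of 85 loci open in both untreated Hras lines, PD closed 24 in both (28.2%, interval 19.0% to 39.0%), against 24.4% of all such loci, kept 47 open in both, closed 6 in Hras.E1A only and 8 in Hras.Myc only. By gene the closed loci were 7 of 29 at Runx1 (24.1%), 9 of 22 at Runx2 (40.9%), 6 of 13 at Runx3 (46.2%) and 2 of 21 at Cbfb (9.52%). Within the body of Cbfb, 0 of 3 such loci closed. With only loci whose nearest start site is that of a member, 17 of 51 closed in both lines (33.3%, interval 20.8% to 47.9%). These were 6 of 21 at Runx1, 7 of 16 at Runx2, 4 of 10 at Runx3 and 0 of 4 at Cbfb. The rest of the 24 lie nearer to the start site of another gene. The 24 were 11 intronic loci, 6 in upstream and 7 in downstream flanks. In Hdac7SA.Mef2d 13 of the 24 were open (54.2%, against 61.8% of all loci closed in both lines), 7 of them at Runx2 and none at Cbfb. TSA left 19 of the 24 open in both lines (79.2%, against 74.7% of all such loci) and 23 in at least 1 (95.8%, against 95.4%).

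Their sequences are shown for 6 of the 24, the locus with the highest percentile in the lower of the untreated Hras lists for each gene and the 3 highest for Runx2, since these were the strongest peaks that PD removed. Given are the central 200 bases on the plus strand (mm10), with each AP-1 motif (TGANTCA, N being any base) in capitals.
Runx1, chr16:92904059-92904258: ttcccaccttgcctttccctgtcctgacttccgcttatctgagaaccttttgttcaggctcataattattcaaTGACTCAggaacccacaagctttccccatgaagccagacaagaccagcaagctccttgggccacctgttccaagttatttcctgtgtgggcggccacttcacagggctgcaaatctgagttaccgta
Runx2, chr17:44645192-44645391: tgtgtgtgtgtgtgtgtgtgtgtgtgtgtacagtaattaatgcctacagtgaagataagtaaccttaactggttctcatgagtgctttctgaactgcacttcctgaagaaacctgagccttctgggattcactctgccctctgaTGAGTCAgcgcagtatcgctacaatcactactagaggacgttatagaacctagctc
Runx2, chr17:44667460-44667659: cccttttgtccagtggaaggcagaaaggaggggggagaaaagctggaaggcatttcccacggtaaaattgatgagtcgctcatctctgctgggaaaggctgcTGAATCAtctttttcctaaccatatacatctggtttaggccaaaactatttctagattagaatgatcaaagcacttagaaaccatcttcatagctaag
Runx2, chr17:44555049-44555248: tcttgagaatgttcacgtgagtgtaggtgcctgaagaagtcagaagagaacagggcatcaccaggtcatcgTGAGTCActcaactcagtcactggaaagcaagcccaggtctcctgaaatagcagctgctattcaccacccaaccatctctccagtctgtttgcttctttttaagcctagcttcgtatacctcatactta
Runx3, chr4:135073578-135073777: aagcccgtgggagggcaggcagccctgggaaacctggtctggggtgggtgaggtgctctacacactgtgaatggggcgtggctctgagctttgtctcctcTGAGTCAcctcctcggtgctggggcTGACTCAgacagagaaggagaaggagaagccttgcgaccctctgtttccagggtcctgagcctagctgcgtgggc
Cbfb, chr8:105238653-105238852: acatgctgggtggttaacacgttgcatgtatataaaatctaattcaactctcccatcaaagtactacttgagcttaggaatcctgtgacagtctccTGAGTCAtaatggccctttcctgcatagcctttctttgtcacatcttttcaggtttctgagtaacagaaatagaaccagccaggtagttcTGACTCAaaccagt
Each of the 6 had an AP-1 motif in this window, and those of Runx3 and Cbfb had 2. For comparison, the locus open in all 7 lists with the highest ranks at Runx2 and the one at Cbfb were as follows.
Runx2, chr17:44709959-44710158: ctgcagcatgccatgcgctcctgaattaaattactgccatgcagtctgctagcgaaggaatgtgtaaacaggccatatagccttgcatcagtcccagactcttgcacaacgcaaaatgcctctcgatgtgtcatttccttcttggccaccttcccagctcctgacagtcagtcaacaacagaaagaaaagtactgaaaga
Cbfb, chr8:105186627-105186826: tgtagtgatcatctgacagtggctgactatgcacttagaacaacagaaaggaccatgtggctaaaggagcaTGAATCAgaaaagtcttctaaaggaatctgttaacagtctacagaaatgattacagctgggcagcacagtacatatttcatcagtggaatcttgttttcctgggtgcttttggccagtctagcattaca
The first had no AP-1 motif here and the second had 1.

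AP-1 motifs marked the closed loci as a class. In the central 400 bases, 22 of the 24 loci closed with PD in both lines held an AP-1 motif (91.7%, interval 73.0% to 99.0%), against 75.7% of all loci of that class. Of the 47 kept open in both lines 10 did (21.3%, interval 10.7% to 35.7%), against 21% of all kept loci. Both intervals include the share of all loci of the class, and 36.6% of all loci of the series held the motif. By gene, closed loci with the motif were 6 of 7 at Runx1, 9 of 9 at Runx2, 5 of 6 at Runx3 and 2 of 2 at Cbfb, and kept loci with it 5 of 15, 2 of 9, 0 of 6 and 3 of 17. Of the 24 closed loci 16 had 1 motif and 6 had 2. The exceptions were chr16:92864167-92864566, 38218 bp upstream of Runx1 P1, and chr4:135219579-135219978 downstream of Runx3. None of the 4 loci opened in both lines had an AP-1 motif, and 3 of the 21 opened in at least 1 line did (14.3%, against 16.4% of all such loci). The GC content of the closed loci, with a median of 46.1%, was below that of the kept loci, with 55.0%, and its part in the motif shares was not tested.

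RUNX motifs stood in 3 of the 24 closed loci (12.5%, interval 2.66% to 32.4%), against 12.2% of all closed loci. Of the 47 kept loci 4 held one (8.51%, interval 2.37% to 20.4%), against 7.43% of all kept loci. Over all loci RUNX motifs were thus more frequent in closed than in kept loci. At the 4 genes the counts were too small to tell the classes apart. With a motif of 6 letters the shares were 33.3% and 25.5%, against 33.3% and 23.3% over all loci. Of all 165 loci 23 held a RUNX motif (13.9%, against 11.8% of all loci), 10 at Runx1, 5 at Runx2, 5 at Runx3 and 3 at Cbfb. Of the 35 loci that Hdac7SA.Mef2d had and neither Hras line shared, 8 held one (22.9%, interval 10.4% to 40.1%). Of all loci of that class 15.2% did. Of the 8, 1 was the P1 promoter of Runx1 and 3 were counted as intronic at Runx2. TEAD motifs (GGAATG) stood in 2 of the 24 closed loci (8.33%, interval 1.03% to 27.0%) and in 14 of the 47 kept loci (29.8%), against 24.3% and 22.4% of all loci in these classes. The CTCF motif stood in 1 of the 24 closed loci, against 3.14% of all closed loci, and in 5 of the 47 kept loci (10.6%), against 16.4% of all kept loci.

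**Figure D5:**
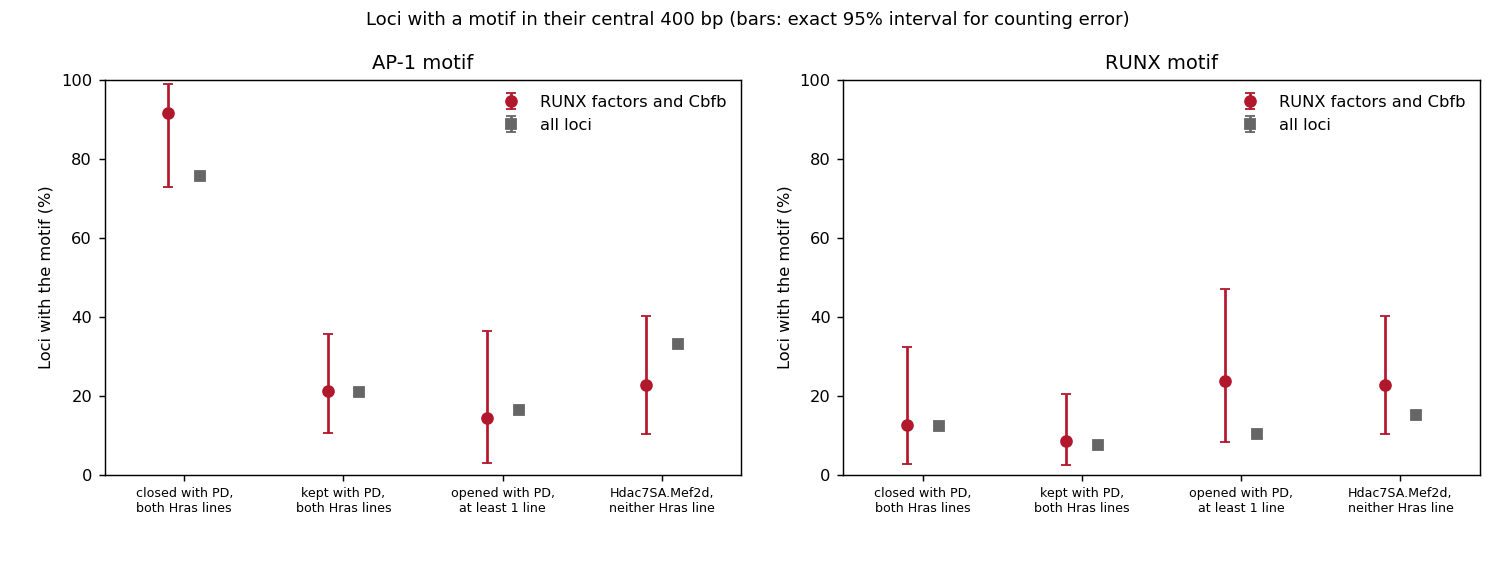
Share of loci with an AP-1 motif (left) and with a RUNX motif (right) in the central 400 bp, for loci of the 4 genes (red circles) and all loci (grey squares) in 4 classes; bars are exact 95% intervals for counting error. For AP-1, 91.7% of the closed and 21.3% of the kept loci of the 4 genes held the motif, beside 75.7% and 21% of all loci, and for the RUNX motif the share of all loci lay within the interval of the 4 genes in each class.

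At Runx1, the strongest loci that PD closed lay far upstream. The locus chr16:92903959-92904358, 78010 bp upstream of P1, was at percentile 70.1 in Hdac7SA.Mef2d, had no peak in Hras.E1A +PD, stood at 94.6 in Hras.E1A +TSA and 91.7 in Hras.E1A, had no peak in Hras.Myc +PD, and stood at 81.8 in Hras.Myc +TSA and 94.8 in Hras.Myc. It held the highest Runx1 score in both untreated Hras lists. The locus chr16:92915537-92915936, 89588 bp upstream, was at 85.4 in Hras.E1A +TSA, 84.7 in Hras.E1A, 55.9 in Hras.Myc +TSA and 77.0 in Hras.Myc, and was absent from Hdac7SA.Mef2d and both PD lists. The other 5 lay between percentiles 7.64 and 40.5 in Hras.E1A and between 8.24 and 35.1 in Hras.Myc. These were chr16:92861665-92862064 and chr16:92864167-92864566 upstream of P1, chr16:92676676-92677075 and chr16:92684156-92684555 in an intron, and chr16:92554350-92554749 downstream of the gene. The second of the upstream loci was at percentile 81.5 in Hras.E1A +TSA, against 29.9 in Hras.E1A.

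Beside the closed loci, Runx1 had loci with a peak or a high percentile in the PD lists. A pair of neighbours upstream of P1, chr16:92891730-92892129 and chr16:92893532-92893931, opened with PD in both lines and were absent from every other list. The first was at percentile 13.6 in Hras.E1A +PD and 75.0 in Hras.Myc +PD, and the second at 73.6 and 8.91, so each ranked high in 1 line only. The locus chr16:92850344-92850743, 24395 bp upstream of P1, held a peak in Hras.Myc +PD alone, at percentile 95.2. A pair of loci open in all lists reached the top 5% with PD in 1 line, chr16:92565684-92566083 downstream of the gene at 96.3 in Hras.E1A +PD, against 66.0 in Hras.E1A, and chr16:92872659-92873058 upstream at 96.4 in Hras.Myc +PD, against 55.0 in Hras.Myc. The highest Runx1 locus in Hras.Myc +TSA was chr16:92573426-92573825, at 93.0.

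At Runx2, closed and stable loci stood side by side in the gene body, in part beyond the basic transcripts. Of the 16 loci at the 4 genes in the top 5% of a list, 8 lay at Runx2, among them the promoter of Supt3. The share of all loci that reach the top 5% of at least 1 list was not computed. Median percentiles of the open loci of the 4 genes ran from 36.5 in Hras.Myc +PD to 45.8 in Hras.E1A +TSA. Most of their peaks thus ranked in the lower part of each list. The locus chr17:44554949-44555348 was the strongest of Runx2 in Hdac7SA.Mef2d, at percentile 99.6, and in Hras.E1A +TSA, at 99.2, and stood at 89.2 in Hras.E1A, 72.1 in Hras.Myc +TSA and 87.7 in Hras.Myc. It had no peak in either PD list. The locus chr17:44667360-44667759 was at 80.9 in Hdac7SA.Mef2d, 92.8 in Hras.E1A +TSA, 88.8 in Hras.E1A, 91.2 in Hras.Myc +TSA and 97.4 in Hras.Myc, the highest Runx2 value there, and was absent with PD. The locus chr17:44645092-44645491 was at 29.1 in Hdac7SA.Mef2d, 86.9 in Hras.E1A +TSA, 96.0 in Hras.E1A, 70.4 in Hras.Myc +TSA and 96.5 in Hras.Myc. The locus chr17:44547912-44548311, absent from Hdac7SA.Mef2d, was at 66.1 in Hras.E1A +TSA, 97.5 in Hras.E1A, 78.7 in Hras.Myc +TSA and 52.7 in Hras.Myc. All 4 were absent from both PD lists.

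The other 5 Runx2 loci closed in both lines were chr17:44508135-44508534, chr17:44727775-44728174 and chr17:44770846-44771245 in the gene body, and chr17:44475941-44476340 and chr17:44418778-44419177 downstream of it. They lay between percentiles 19.3 and 89.3 in Hras.E1A and between 18.2 and 57.8 in Hras.Myc. Of the 9 Runx2 loci open in all lists, the one with the highest ranks was chr17:44709859-44710258, 104738 bp into the gene, with 2 TEAD motifs and no AP-1 motif. It was at percentile 97.5 in Hdac7SA.Mef2d, 94.4 in Hras.E1A +PD, 96.2 in Hras.E1A +TSA, 99.0 in Hras.E1A, 98.2 in Hras.Myc +PD, 97.1 in Hras.Myc +TSA and 97.0 in Hras.Myc, high in every list. The locus chr17:44587994-44588393, also open in all lists and also with 2 TEAD motifs, was uneven, at 17 in Hdac7SA.Mef2d, 96.1 in Hras.E1A +PD, 96.9 in Hras.E1A +TSA, 94.0 in Hras.E1A, 17 in Hras.Myc +PD, 72.9 in Hras.Myc +TSA and 89.4 in Hras.Myc. The promoter of Supt3, which lies inside Runx2 at chr17:44776897-44777296, was between 84.9 in Hdac7SA.Mef2d and 97.6 in Hras.Myc +PD. The highest Runx2 score in Hras.E1A +PD belonged to chr17:44445387-44445786 downstream of the gene, at 97.8, a locus absent from the 6 other lists.

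At Runx3, PD removed both strong upstream loci. The locus chr4:135073478-135073877, 46974 bp upstream of P1, was absent from Hdac7SA.Mef2d and both PD lists and was at percentile 91.0 in Hras.E1A +TSA, 82.2 in Hras.E1A, 83.0 in Hras.Myc +TSA and 96.1 in Hras.Myc. The locus chr4:135079848-135080247, 40604 bp upstream, was the strongest of Runx3 in Hdac7SA.Mef2d, at 93.3, and was at 31.2 in Hras.E1A +TSA, 77.4 in Hras.E1A, 51.5 in Hras.Myc +TSA and 70.2 in Hras.Myc. The remaining 4, chr4:135158667-135159066 and chr4:135169075-135169474 in an intron and chr4:135219579-135219978 and chr4:135247236-135247635 downstream, lay between 6.34 and 44.0 in Hras.E1A and between 11.8 and 38.1 in Hras.Myc. The locus chr4:135189601-135190000, downstream of the gene, was the highest of Runx3 in Hras.E1A, at 85.7, and was closed with both drugs there. The intronic locus chr4:135166556-135166955 opened with PD in both lines, at 33.1 in Hras.E1A +PD and 29.2 in Hras.Myc +PD, and was also open in Hdac7SA.Mef2d (20.4) and Hras.Myc +TSA (19.6). The highest Runx3 locus in both PD lists was the promoter of Clic4, at 86.2 in Hras.E1A +PD and 95.4 in Hras.Myc +PD.

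At Cbfb, the locus of highest score in 5 of the 7 lists was in an intron and stayed open. The locus chr8:105186527-105186926, 16053 bp into the gene and with 2 AP-1 motifs, was at percentile 99.4 in Hdac7SA.Mef2d, 64.4 in Hras.E1A +PD, 99.9 in Hras.E1A +TSA, 99.9 in Hras.E1A, 95.7 in Hras.Myc +PD, 96.7 in Hras.Myc +TSA and 99.4 in Hras.Myc. It ranked lowest in Hras.E1A +PD. The locus chr8:105120984-105121383 upstream of Cbfb was similar, with 99.4 in Hdac7SA.Mef2d, 81.7 in Hras.E1A +PD, 95.6 in Hras.E1A +TSA, 95.5 in Hras.E1A, 95.1 in Hras.Myc +PD, 95.5 in Hras.Myc +TSA and 97.0 in Hras.Myc. In Hras.E1A +PD the first place went to chr8:105138402-105138801, at 93.1 there and 80.6 in Hras.E1A. Both loci closed with PD in both lines lay in the downstream flank, nearer to other genes than to Cbfb, and were absent from Hdac7SA.Mef2d. The locus chr8:105238553-105238952, with 2 AP-1 motifs, was at 82.1 in Hras.E1A +TSA, 68.0 in Hras.E1A, 70.6 in Hras.Myc +TSA and 62.1 in Hras.Myc, and chr8:105298772-105299171, next to the promoter of E2f4, was at most at 10.5. The locus chr8:105164345-105164744, 6129 bp upstream of Cbfb and with 1 RUNX motif, opened with both drugs in both Hras lines, at 21.5 in Hras.E1A +PD, 14.9 in Hras.E1A +TSA, 10.6 in Hras.Myc +PD and 3.75 in Hras.Myc +TSA, and was at 23.2 in Hdac7SA.Mef2d. The promoter of E2f4, at chr8:105297457-105297856, was the only promoter of another gene in this window to reach the top 5% of a list, at 96.6 in Hras.Myc +TSA.

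Across both lines, the 4 loci of the 4 genes that PD opened in both were 8.70% of the 46 open in neither untreated Hras line, against a background of 6.71%. Over the 4 genes together, the loci that PD closed had a lower median rank before treatment than those it kept. In Hras.E1A the 49 closed loci had a median percentile of 34.5 and the 59 kept loci of 46.5, against 44.5 and 53.5 over all loci. In Hras.Myc the 40 closed loci had a median of 36.6 and the 56 kept loci of 42.0, against 43.9 and 53.8 over all loci. At Runx3 the order was the opposite in both lines, with medians of 39.4 for closed and 27.5 for kept loci in Hras.E1A and of 33.0 and 24.3 in Hras.Myc. The ranges overlapped almost wholly, since closed loci reached percentile 97.5 in Hras.E1A and 97.4 in Hras.Myc.

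TSA closed fewer loci than PD. It closed 15 of 108 open loci in Hras.E1A (13.9%, interval 7.99% to 21.9%, background 15.8%) and 12 of 96 in Hras.Myc (12.5%, interval 6.63% to 20.8%, background 16.4%). At distal loci it closed 15 of 91 in Hras.E1A (16.5%, background 18.5%) and 11 of 81 in Hras.Myc (13.6%, background 19%). It opened 14 of 57 loci in Hras.E1A (24.6%, interval 14.1% to 37.8%, background 16.7%) and 19 of 69 in Hras.Myc (27.5%, interval 17.5% to 39.6%, background 17.7%), and both intervals include the background. With lists of equal length TSA opened 10 and closed 15 loci in Hras.Myc, so that the balance turned. TSA closed 1 of 85 loci in both lines, at Runx1 (1.18%, background 2.62%), and opened 1 of 46 in both, the upstream locus of Cbfb above (2.17%, background 3.34%). At Runx3 the lines differed in count, with 6 of 18 closed in Hras.E1A and 1 of 17 in Hras.Myc, a difference that was not tested. The Runx3 interval in Hras.E1A (13.3% to 59.0%) includes the background. At Cbfb TSA closed 0 of 22 in Hras.E1A (interval 0% to 15.4%, below the 15.8%) and 3 of 22 in Hras.Myc. With distal loci alone it closed 0 of 12 at Cbfb in Hras.E1A (interval 0% to 26.5%, which includes the 18.5%). Each TSA list rests on 1 library.

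The genes that act with RUNX proteins were followed by the loci within 10000 bp of their start sites. A list of 20 corepressors and partners held 63 loci, of which PD closed 10 of 48 in Hras.E1A (20.8%, interval 10.5% to 35.0%) and 9 of 42 in Hras.Myc (21.4%, interval 10.3% to 36.8%), against 22.6% of such loci at all protein-coding genes in each line. With promoter loci left out, these were 8 of 22 in Hras.E1A (36.4%, background 40.6%) and 7 of 14 in Hras.Myc (50%, background 42%). Cbfa2t3, an ETO family corepressor, lost 3 of 5 open loci in each line, and Tle2, a Groucho family corepressor, 2 of 2 in each line. Runx1t1, the partner of RUNX1 in leukaemic fusions, kept all 6 open loci in Hras.E1A. In Hras.Myc it lost 1 of 4 open loci and gained 2. With TSA, 6 of 15 loci of the list opened in Hras.E1A (40%), against 23.9% at all protein-coding genes. In Hras.Myc 4 of 21 opened (19.0%), against 26.1%. Of these, 3 in Hras.E1A and 2 in Hras.Myc lay at the kinase gene Hipk2. The differences were not tested. The acetyltransferase gene Kat6b lost 2 of 4 loci with PD in Hras.E1A and 1 of 3 in Hras.Myc. The coactivator gene Ep300 kept its 3 loci in Hras.E1A and lost 1 of 3 in Hras.Myc.

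A list of 20 target genes of RUNX proteins in bone, cartilage and blood held 76 loci. PD closed 12 of 47 in Hras.E1A (25.5%, interval 13.9% to 40.3%) and 13 of 46 in Hras.Myc (28.3%, interval 16% to 43.5%), and the intervals include the 22.6% of all genes. With promoter loci left out both shares were below the background, with 8 of 29 in Hras.E1A (27.6%, background 40.6%) and 9 of 26 in Hras.Myc (34.6%, background 42%). The bone matrix gene Ibsp lost both of its 2 open loci in each line, and Spp1, which encodes osteopontin, lost 1 of 3 in Hras.E1A and 2 of 3 in Hras.Myc. Sp7, the osteoblast factor downstream of Runx2, moved in opposite directions, with 2 loci opened and none closed in Hras.E1A, and 3 of 4 closed and none opened in Hras.Myc, a difference that was not tested. Mmp13, a collagenase of bone and cartilage, lost 1 of 1 in Hras.E1A and 1 of 2 in Hras.Myc. Alpl and Itga2 each lost 1 of 2 in each line. At Col1a1 PD closed none of 4 loci in either line, and at Gfi1, a repressor of blood cells, it closed none and opened 1 in each line.

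Genes with the most similar pattern over the 7 lists were found by the mean absolute difference in the share of loci open in each list, among genes with at least 10 loci and more than 1 Mb from the member. For Runx1, Mob4 differed by 1.47 percentage points, Cubn by 1.5 and Ddx52 by 1.70. For Runx2, Ubr3 differed by 1.76, Fkbp15 by 1.83 and Pygl by 1.88. For Runx3, which had the least similar neighbours of the RUNX genes, Asb7 differed by 2.61, Mgat4a by 3.09 and Map1b by 3.62. For Cbfb, Lrfn1 differed by 2.10, and Neil1 and Commd4, which share their loci, by 2.12. These are the nearest of 17477 to 17530 genes compared for each member, and the lists share peak positions.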

How the data were processed

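The assay was ATAC-seq, on 12 libraries of about 50000 cells each. Per the submitters' processing notes and the study's methods, the authors aligned reads with Bowtie2 (2.4.5) to mm10, called peaks with MACS2 (2.2.7.1) and reset peaks of all groups to shared positions with redefine_peaks, so the 7 lists are not independent. The deposited lists hold positions and a score in column 5, whose scale the sources used here do not give. Scores were therefore compared only as ranks within a list. The sources used here do not say how libraries of a group were combined, and depth is unknown.

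Peaks of the 7 lists overlapping by 1 bp or more were merged. Genes and start sites came from GENCODE M21 (basic transcripts). Loci within 1000 bp of a start site of a member gene, or of any protein-coding gene where promoters were left out, were promoter loci, and the flanks were 100 kb. Both strands of the central 400 bp were searched for motifs, and a palindromic match was counted once. Sequences came from RefSeq GRCm38.p6. The scripts used Python 3.11.15, numpy 2.4.6, pandas 2.3.3, scipy 1.17.1, pysam 0.24.0 and matplotlib 3.10.9, and were tested on simulated data. No test between groups was made, because each group had 1 list.

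Loci named singly were all promoter loci of the 4 genes, loci closed or opened with PD in both Hras lines, loci in the top 5% of a list and the highest locus of each gene in each list, unless stated otherwise. Other genes were owners of promoters in the windows, the partner and target lists and the 3 most similar genes for each member. The members and lists were chosen with earlier results of these data known. Alternatives were a stricter score, lists of equal length, other overlaps, windows, flanks, motif definitions and gene assignments.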

Additional observations from a re-analysis of the deposited data

Results flagged for a closer look

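At 3 of the 165 loci PD moved the Hras lines in opposite directions, and these differences were not tested. The share of all loci that did so was not computed, so this count has no background beside it. The locus chr16:92608133-92608532 in an intron of Runx1 opened in Hras.Myc +PD, with a score of 2.18 at percentile 7.40, and closed in Hras.E1A, where its untreated score was 1.21 at percentile 0.103. The locus chr17:44734100-44734499 in an intron of Runx2, beside P2, opened in Hras.E1A +PD with a score of 1.57 at percentile 2.70, and closed in Hras.Myc, where the untreated score was 1.2 at percentile 0.028. The locus chr8:105159552-105159951 upstream of Cbfb opened in Hras.E1A +PD with a score of 1.63 at percentile 3.19, and closed in Hras.Myc, where the untreated score was 1.32 at percentile 1.13. All of these peaks ranked low in their lists.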

How the results depend on the processing

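Of 178 values under 13 alternative settings, 146 stayed within the counting interval or within 1.5 times the reported count. With the gene body alone there were 84 loci, PD opened 3 loci of Hras.E1A and 10 of Hras.Myc, and TSA opened 8 and 10. With flanks of 50000 bp PD opened 5 in Hras.E1A. With lists cut to the strongest 56774 peaks, PD opened 26 in each line, TSA opened 10 in Hras.Myc, and the open promoters summed over the lists were 26, against 41 as reported. With the weakest 25% of each list removed they were 25, PD closed 54.5% in Hras.Myc (background 43%), and 38.3% of the loci of Hdac7SA.Mef2d were open in neither Hras line (background 47.4%). In the central 200 bp, 70.8% of the loci closed in both lines held an AP-1 motif. With a RUNX motif of 6 letters, 33.3% of these loci and 25.5% of the kept loci held one. For the partner genes, the share closed with PD was 36.4% for Hras.E1A (background 40.6%) and 50% for Hras.Myc (background 42%) without promoter loci, and 35.4% (background 33.4%) and 41.8% (background 33.9%) within 50000 bp, where the target genes gave 40.9% in Hras.E1A (background 33.4%). The cause of these shifts was not tested. Leaving out single replicates could not be run, since each group has 1 list. No paired analysis was possible because each group had 1 peak list. Depth is unknown, so the absence of a peak does not show a closed locus.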
